A study of Caenorhabditis elegans with 2 samples.

Results

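The ONECUT and CUX homeobox genes of Caenorhabditis elegans are the 7 genes ceh-21, ceh-38, ceh-39, ceh-41, ceh-44, ceh-48 and ceh-49, taken by name from 19973 protein-coding genes of the nuclear chromosomes. Around each gene, every summit of a CEH-90 ChIP-seq peak was collected from 2000 bp upstream of the annotated gene to its end, a stretch called the window. The chromatin came from whole hermaphrodites of strain OP210, whose genotype is unc-119(ed3) III with the integrated transgene wgIs210. That transgene makes CEH-90 with GFP and FLAG at its C terminus, and an antibody against GFP recovered the fusion. The labels name neither the promoter that drives the fusion nor how many copies were inserted. Nor do they say whether the samples came from separate cultures, so the spread between them may be technical. All were L1 larvae taken 6 hours after being synchronized as starved hatchlings of bleached worms, and they formed 1 group of 2 samples numbered as biological replicates. No second condition and no immunoprecipitation from worms without the fusion was analysed here, so the values below are a description and no test was made. The worms were whole animals, so strong binding in a few cells and weak binding in many cannot be told apart.

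Proteins of the ONECUT class carry 1 DNA-binding cut domain followed by a homeodomain, and CUX proteins carry several cut domains before theirs. In C. elegans, ceh-39 is one of the X-linked genes whose dose tells the embryo how many X chromosomes it has, through repression of the master sex gene xol-1. The genes ceh-48 and ceh-44 are expressed throughout the nervous system, and ceh-38 is expressed broadly; together with others of the family they act on genes that all neurons use. CEH-90 is itself a homeobox protein, so the sites described here are those of 1 homeobox protein at the genes of other homeobox proteins. RefSeq names ceh-38, ceh-48 and ceh-49 as members of the one cut domain family and ceh-44 as cut-like. It names ceh-21, ceh-39 and ceh-41 only as homeobox proteins, so for these the files hold no record of the class. Ensembl lists the ceh-44 locus under the symbol cone-1, and it was matched through its RefSeq symbol and shared WormBase identifier WBGene00000464.

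Peaks came from 4 deposited lists in genome build ce11. Replicate 1 had 23796 peaks and replicate 2 had 30000, and a list from both replicates pooled had 30000. These 3 lists include background by design, and 1022, 750 and 830 of their peaks reached a q of 0.05 or less. The fourth, called the optimal list, kept the 765 peaks that passed a threshold on the irreproducible discovery rate, a measure of how alike the replicates rank them. Rank 1 is the strongest peak of a list by the authors' signal. Read depth is unknown, because the lists hold no counts.

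Stretches under the strongest pooled summits of the family, and under the second summit of ceh-38, show the DNA these results concern. They are written 5' to 3' on the strand of the named gene, from the WBcel235 reference, which has the ce11 coordinates. Capitals mark any of 7 words of 6 bases searched on both strands within 50 bp of each summit. The first 5 words, given with their shares further on, led at the sites of this series in an earlier analysis, and the other 2 are the cores ATCGAT and ATCAAT bound by cut-domain proteins. The words overlap one another, as in GGCCTA and CTAGGC.
ceh-21, chrX:1853758-1853787, in the 5' UTR of T26C11.9: ttcacacatgtgGTGGCCTAagatctcatt
ceh-38 at its start, chrII:6951462-6951525: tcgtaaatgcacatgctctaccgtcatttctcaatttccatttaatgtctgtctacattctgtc
ceh-38 second summit, chrII:6950741-6950841, inside malt-1: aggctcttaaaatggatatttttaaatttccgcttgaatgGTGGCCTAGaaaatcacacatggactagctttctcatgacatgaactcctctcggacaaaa
ceh-39, chrX:1856274-1856374: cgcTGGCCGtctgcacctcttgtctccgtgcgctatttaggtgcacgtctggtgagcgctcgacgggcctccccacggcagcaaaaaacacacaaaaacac
ceh-44, chrIII:2528788-2528888: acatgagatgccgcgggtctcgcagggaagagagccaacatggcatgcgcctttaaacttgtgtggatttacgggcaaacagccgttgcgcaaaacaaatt
The ceh-21 stretch is kept to 30 bases because it lies in a UTR, and the ceh-38 stretch ends where the first annotated transcript begins.

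Of the 7 genes, ceh-21 and ceh-38 had an optimal summit in the window, which is 28.6% (exact binomial 95% interval 3.67 to 71.0%). The same was true of 1155 of the 19973 protein-coding genes, or 5.78%, a share inside that interval. On chromosome X, where ceh-21 lies, it was true of 51 of 2731 protein-coding genes, or 1.87%. A pooled summit of any strength lay in the window of 4 of the 7 genes (57.1%), against 63.6% of protein-coding genes, and replicates 1 and 2 each gave a summit at 5 of the 7 (71.4%), against 59.0% and 64.9%. In ceh-21 and ceh-38 a pooled summit had a partner within 100 bp in both replicates, which was so for 29.6% of protein-coding genes. The gene ceh-49 had no summit in any of the 4 lists, as did 23.4% of protein-coding genes. That ceh-38 has an optimal peak was known when the genes were chosen, and the ceh-21 window overlaps those of ceh-39 and ceh-41. The interval treats the 7 genes as separate draws, so it and the share beside it are description and no test of the family.

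**Figure D1:**
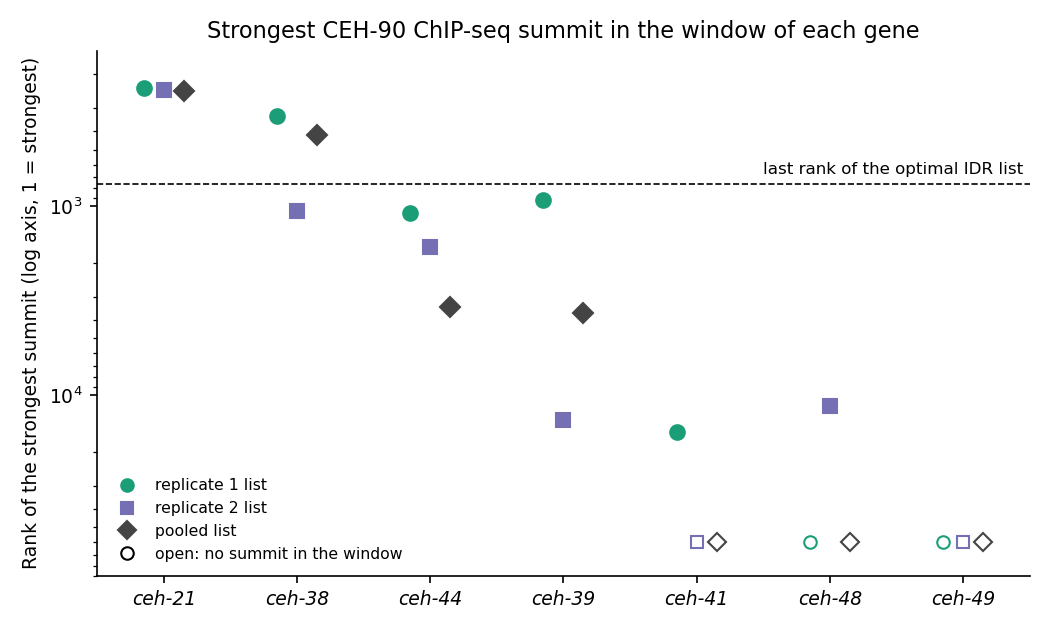
Rank of the strongest summit in the window of each gene (log axis, 1 at the top is the strongest) in the replicate 1, replicate 2 and pooled lists, with open symbols where a list had no summit and a dashed line at rank 765. The 3 points of ceh-21 lie between 235 and 246, those of ceh-38 spread from 331 to 1059, and ceh-49 has open symbols only.

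In signal, the order was ceh-21, ceh-38, ceh-39, ceh-44 and ceh-41 in replicate 1, with strongest summits of 75.6, 53.5, 29.1, 27.5 and 12.4 on the scale of that list. In replicate 2 it was ceh-21, ceh-38, ceh-44, ceh-48 and ceh-39, at 85.5, 36.7, 31.9, 18.8 and 17.7. The first 2 places were the same in both replicates. The order of ceh-39 and ceh-44 was reversed in replicate 2, where ceh-39 also came after ceh-48. These 2 were thus not separated beyond the spread between replicates. Their strongest summits also differed in position between replicates 1 and 2. They were at 1856369 and 1857167 for ceh-39, and at 2528839 and 2529172 for ceh-44. For these genes the order therefore does not compare the same sites. The lowest signal that was listed at all was 10.4 in replicate 1 and 12.7 in replicate 2, so ceh-41, at 12.4, was close to the floor of its list.

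The strongest site of the family was at ceh-21, in a row of 4 genes on chromosome X that are all read from the minus strand. From upstream to downstream they are ceh-39, T26C11.9, ceh-21 and ceh-41, and the gaps between them are 24, 101 and 103 bp. The optimal summit was at 1853786, where the peak ranked 246 with a signal of 158.5. Its rank was 235 in replicate 1 (summit at 1853754) and 242 in replicate 2 (1853787), and q was 0.000948 and 0.00104. Both replicates thus placed it well inside their top 765. Of the 55 optimal peaks on X it was number 7 by signal, and 415 protein-coding genes (2.08%) had a window summit as strong or stronger.

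That summit was not at the annotated start of a homeobox gene. It lay 63 bp inside T26C11.9, in its 5' UTR, and 202 bp upstream of a second annotated start of the same gene. From the start of ceh-21 it was 1050 bp upstream, and from that of ceh-41 5111 bp. Upstream, it was 88 bp beyond the 3' end of ceh-39 and 2386 bp from the start of that gene, so the ceh-39 window just missed it. The nearest annotated start belonged to T26C11.9, and a peak in this place could not be given to 1 gene of the row. Many C. elegans genes in such tight rows are transcribed together as operons, whose downstream messages are trans-spliced; whether this row is one was not tested.

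Just upstream of the row, ceh-39 had 2 weaker pooled summits, both in intergenic sequence. The nearer one was 152 bp upstream of its start at 1856324, at rank 3648 with a q of 0.682. Replicate 1 had a summit 45 bp from it, at rank 927 with a signal of 29.1 and q of 0.0394, but replicate 2 had none within 100 bp. This site also lay 149 bp from the start of the ncRNA gene T26C11.10 on the other strand. The second, at 1857301 and rank 3984, had a partner 28 bp away in replicate 1 at rank 6100. The nearest summit of replicate 2, at 1857167 and rank 13537, was 134 bp from it, which is a match at 200 bp and not at 100 bp. The promoter of ceh-39 was therefore listed among the 1022 peaks at q of 0.05 or less in replicate 1 and was not matched in replicate 2. Beyond the window, at 2630 bp upstream, a pooled summit of rank 1332 was matched in both replicates and lay beside the tRNA gene WBGene00023152, named here after its values were seen.

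The last gene of the row, ceh-41, had a single summit, 2 bp from its start, in replicate 1 alone. It ranked 15589 with a signal of 12.4 and q of 0.906. Neither replicate 2 nor the pooled list had a summit in the window.

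**Figure D2:**
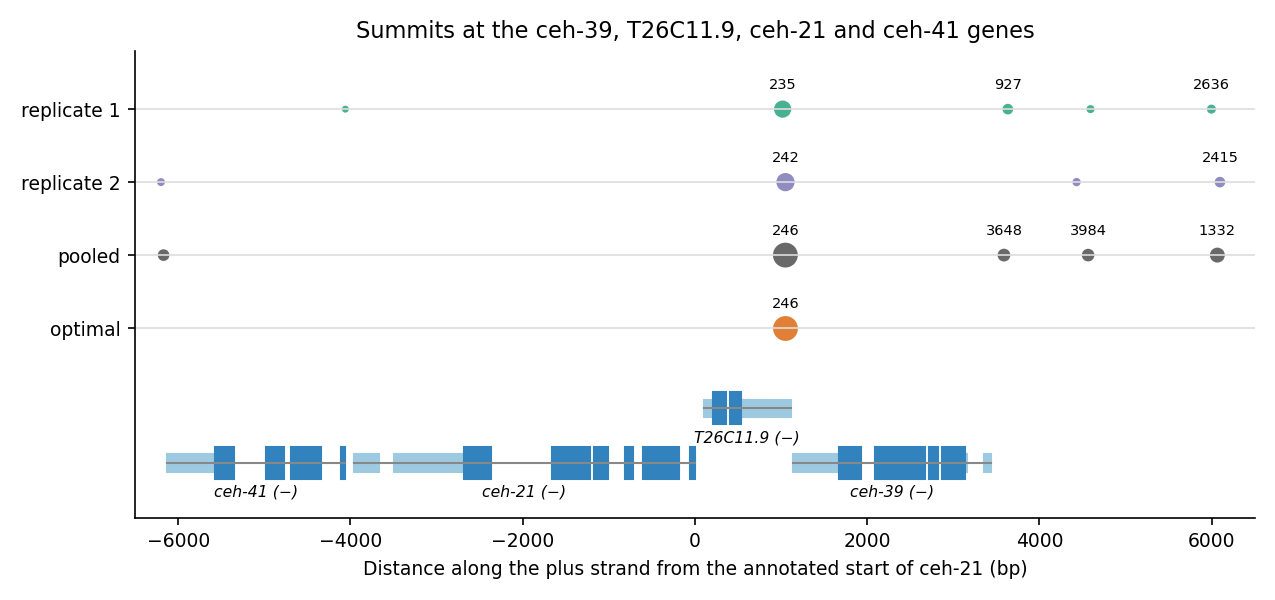
Map of the chromosome X row, with summits of the 4 lists as dots whose area follows the signal, numbers giving the ranks of the stronger ones, dark blocks for coding exons and pale blocks for UTRs. The x axis is the distance in bp along the plus strand from the start of ceh-21. A summit stands over T26C11.9 in all 4 lists, at rank 235 in replicate 1, 242 in replicate 2 and 246 in the pooled and optimal lists. The summits upstream of ceh-39, at ranks 3648 and 3984 in the pooled list, are smaller.

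At ceh-38 the optimal summit lay on the gene start itself. The gene occupies 6951526 to 6955409 on the plus strand of chromosome II and has 11 annotated transcript starts. The summit, at 6951512, was 14 bp upstream of the first of them and 558 bp upstream of the first coding base. The peak ranked 420 in the pooled list with a signal of 100.2, and 79 among the 138 optimal peaks on chromosome II. A window summit as strong or stronger was found for 690 protein-coding genes, or 3.45%. The start of malt-1, which encodes a paracaspase and is read in the opposite direction, lay 212 bp away, and 225 bp separate the 2 genes. The peak therefore sat in a short gap between divergent genes, with ceh-38 the nearer.

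The ranks in the replicates lay further apart here than at ceh-21. Replicate 1 placed the site at rank 331 with a signal of 53.5 and q of 0.000948. Replicate 2 placed it at rank 1059 with a signal of 36.7 and q of 0.109, below its top 765. The summits lay 30 and 16 bp upstream of the start, at 6951496 and 6951510. The positions were close in both replicates. The signals of the lists have no common scale, so a difference in strength cannot be read from these values. The site would not have entered a list of the 765 strongest peaks of replicate 2.

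A second summit of ceh-38 was matched in both replicates as well. It lay 735 bp upstream of the start, at 6950791 in an intron of malt-1, with a pooled signal of 43.4, rank 3282 and q of 0.627. Replicate 1 had it at rank 1923, 4 bp away, and replicate 2 at rank 6868, 20 bp away. Another, at 6949609 in a coding exon of malt-1, ranked 14811 and was matched in replicate 2 alone. Replicate 1 had a summit in a coding exon of ceh-38, 1983 bp after its start, at rank 13290. It was the single summit listed within the body of ceh-38.

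The CUX gene ceh-44 had the most summits and none in the optimal list. The locus occupies 2530613 to 2546420 on the plus strand of chromosome III, and 1 of its 3 annotated transcripts ends at 2543056, while the longest ends at 2546420. Its window of 17808 bp held 12 pooled summits, 8 in replicate 1 and 7 in replicate 2. Per kb, that is 0.674 pooled summits, against a median of 0.248 and quartiles of 0 and 0.465 over all protein-coding genes. Among the 209 genes with a window within 10% of this length, the median was 6 pooled summits (quartiles 3 and 9), and 31 genes (14.8%) had 12 or more. All 12 were weak, with pooled ranks from 3387 to 29172 and q of 0.639 or more.

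None of the 12 pooled summits at ceh-44 had a partner within 100 bp in both replicates. A partner was found in replicate 1 alone for 5 and in replicate 2 alone for the other 7. With a limit of 200 bp, the summits at 2534838 (gaps of 16 and 137 bp) and 2544151 (169 and 12 bp) had partners in both, so the absence rests on the distance chosen. Among all 25786 pooled summits in the same range of ranks, 18.6% had partners in both replicates, 60.4% in 1, and 5414 had none in either. With only 12 summits, this count was not set apart from that background by any test.

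The strongest of the 12 lay at the far edge of the window, 1775 bp upstream of the ceh-44 start. It was 149 bp from the start of rbc-2, a rabconnectin gene, 159 bp from that of Y54F10AM.15 and 225 bp from that of ndua-8, which encodes a subunit of respiratory complex I. In replicate 1 it ranked 1083 with a signal of 27.5 and q of 0.0605. The strongest summit of replicate 2 was at another place, 1441 bp upstream in a coding exon of ndua-8, at rank 1639 with a signal of 31.9 and q of 0.220. Near the start of ceh-44 itself, pooled summits lay 340 and 138 bp upstream at ranks 16519 and 22910. Since ndua-8 ends 110 bp before ceh-44 begins, both fell within ndua-8, the first in a coding exon and the second in its 3' UTR. Of the 7 pooled summits within the gene, 6 were in introns and 1 in a 3' UTR, the strongest 4225 bp after the start at rank 6511. One of the intron summits, at 2544151 and rank 10131, lay beyond the end of the shortest transcript at 2543056. It was also beyond the end of the gene in RefSeq, at 2543068.

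**Figure D3:**
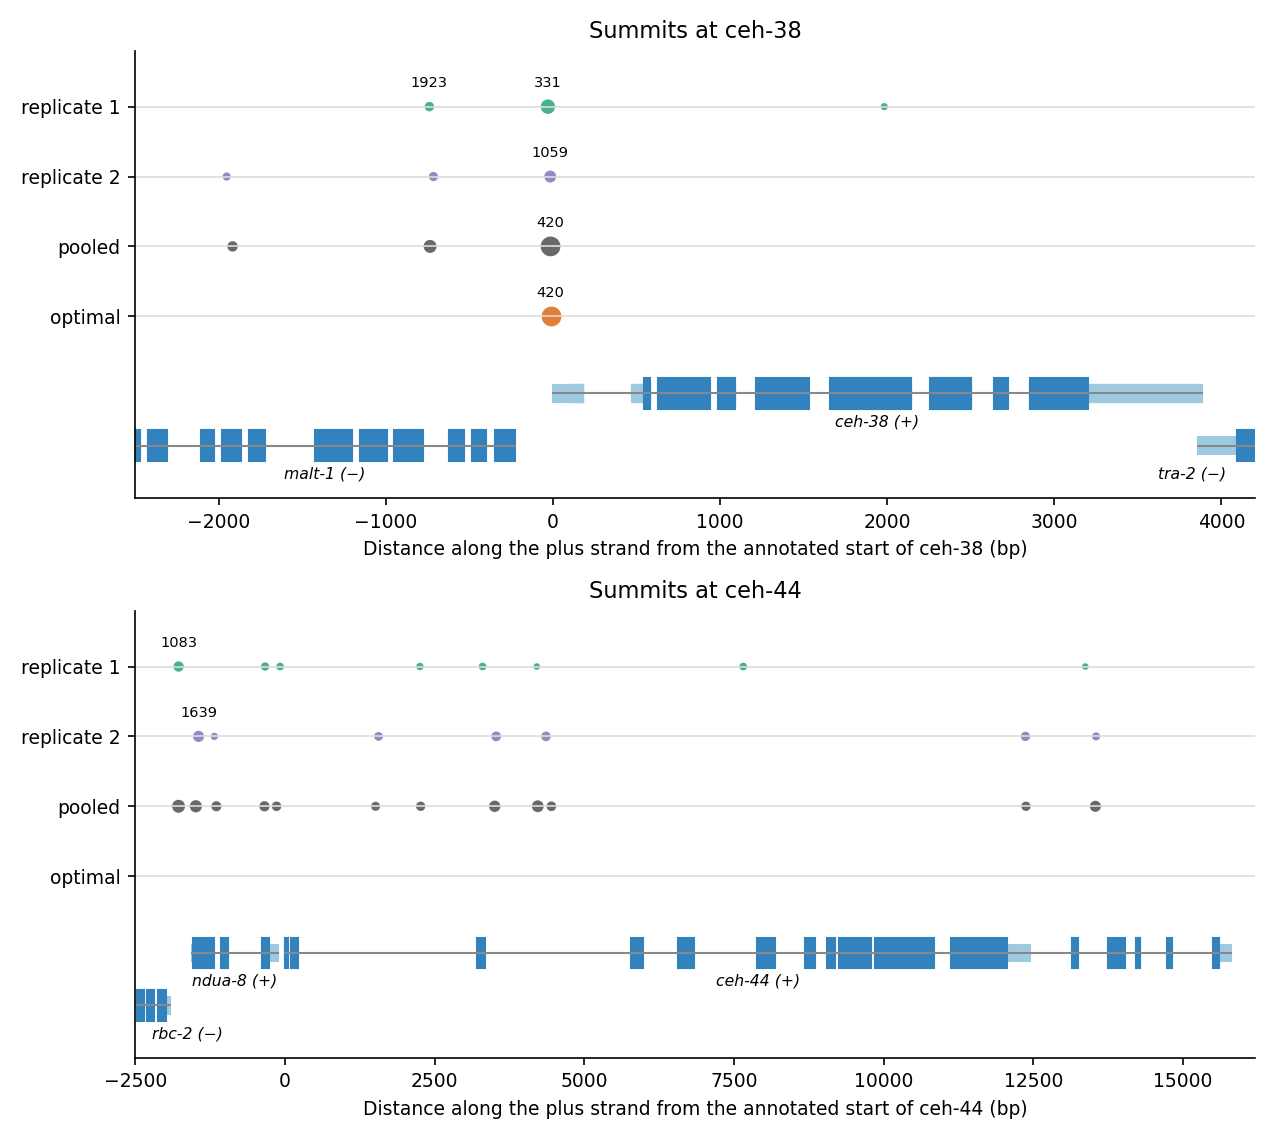
Maps of ceh-38 (top) and ceh-44 (bottom), drawn as for the chromosome X row, with the distance in bp from each gene start on the x axis and the ranks of the stronger summits as numbers. At ceh-38 the 4 lists have a summit at the start, and at ceh-44 the 12 pooled summits are spread over the locus with none in the optimal list.

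Of the remaining genes, ceh-48 had 1 summit, in replicate 2 alone. It lay 1244 bp upstream of the start at rank 11331, with a signal of 18.8 and q of 0.847. The annotated start nearest to it, 53 bp away, was that of 21ur-8662 and not that of ceh-48. The nearest pooled summit was 2680 bp upstream, in an intron of C17H12.10 and 680 bp beyond the window. For ceh-49, whose window of 3874 bp held nothing, the nearest pooled summit was 6321 bp after its start, in a coding exon of cwf-19L1, at rank 26118. Among the 4240 genes with a window within 10% of that length, 1808 (42.6%) held no pooled summit. The lists end at a weakest peak, so an empty window means that no summit was listed there and not that no binding took place.

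Taking all members, the windows held 0.380 pooled summits per kb, against 0.305 over all protein-coding windows. The median member had 0.168, against 0.248 for the median protein-coding gene, so the sum and the median stood on different sides of the background. The 12 summits of ceh-44, of 18 in all, make up most of the sum.

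The 2 strongest genes differed in the words under their summits. Under the ceh-21 summit stood GGCCAC and 2 copies of GGCCTA. These words were found within 50 bp of 19.1% and 18.8% of the 765 optimal summits, of which the ceh-21 summit is 1. At the 29235 other pooled summits the shares were 2.06% and 2.18%. The 5 leading words were taken because they led at the sites of this series. A higher share of any of them at the optimal summits is therefore not a finding. The copy of GGCCTA nearer the ceh-21 summit overlaps GGCCAC in the stretch printed above, 18 bp or less from the summit. The ceh-38 summit at the start held none of the 5 leading words and neither cut-domain core. Each leading word was at 19.1% or less of the optimal summits. How many optimal summits held none of the 5 was not counted, so their absence does not set the ceh-38 start apart. The difference from ceh-21 is a description of 2 sites. The ceh-38 summit at the start held 1 TAAT, the core of many homeodomain sites. TAAT was also at the second ceh-39 summit, at 1857301, and at several ceh-44 summits, with 6 copies at 2544151. It was present at 50.5% of optimal and 67.6% of other pooled summits, so it was not particular to the ceh-38 start. The weaker ceh-38 summit inside malt-1 held GGCCAC and, overlapping it, GGCCTA, both within 10 bp of the summit. It also held CTAGGC, whose letters share 5 of the 6 bases of GGCCTA read on the other strand. CTAGGC occurs at 17.6% of optimal and 1.94% of other pooled summits.

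The longest stretch that the ceh-21 window and the malt-1 window share is TGGTGGCCTA, 10 bases, on the strand of the ceh gene in both. It was present at 13 of the 765 optimal summits (1.70%) and at 78 of the 29235 others (0.267%). It was found by comparing these 2 windows, so its presence in both is not a finding. It also contains GGCCTA and, on the other strand, GGCCAC, words that led at the sites of this series. The difference between its shares is therefore not a finding either. The ceh-39 summit nearest its start held CGGCCA, 42 bp away, as did the second, 14 bp away, a word at 17.5% of optimal and 2.04% of other pooled summits. The strongest ceh-44 summit held none of the words, but 2 weaker ones within the gene held leading words. At 2532882 (rank 25131) these were GGCCAC and CGGCCA, which overlap, and at 2534838 (rank 6511) it was CGGCCA. Of the cut-domain cores, ATCGAT was at none of the 18 pooled summits of the family, and it was at 4.18% of optimal and 3.78% of other pooled summits. ATCAAT was at the ceh-21 summit, 36 bp away, and at 3 summits within ceh-44, against 7.19% of optimal and 9.95% of other pooled summits. ACGCGC was at none of the 18, against 107 of the 765 optimal summits and 1.81% of the others.

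GC content within 50 bp was 47.5% at the ceh-21 summit, 41.6% at the ceh-38 start, 59.4% at the ceh-39 summit nearest its start and 51.5% at the strongest ceh-44 summit. The medians were 44.6% over the optimal summits and 32.7% over the other pooled summits. The other summits of ceh-44 ran from 18.8 to 50.5%.

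By the ranks of the strongest window summit in both replicates, the genes most like ceh-21 were ubh-4, algn-6 and C08B11.9, which share 1 peak on chromosome II, and rps-28 and Y41D4B.4, which share 1 on IV. Likeness was the distance between log2 ranks over the 2 replicates, and it was 0.0436 for the first 3 genes and 0.0590 for the others. The first peak ranked 241 and 238 in replicates 1 and 2, and the other 242 and 249. The genes most like ceh-38 were twk-31, at ranks 325 and 1129, and unc-84, at ranks 347 and 975, with distances of 0.0960 and 0.137. Y71F9AR.2 (0.191), Y67D2.2 and eelo-1 (both 0.197) followed. Each of these 10 genes had an optimal summit, which says little, since they were chosen for ranks near those of genes in that list.

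Elsewhere in the homeobox class, none of 93 other homeobox genes had an optimal summit in the same window, against the 5.78% of all protein-coding genes. A pooled summit of any strength was in the window of 59 of them (63.4%), which is close to the share of all protein-coding genes. Matching in both replicates was seen for 20 (21.5%), against 29.6%. The strongest were at ceh-8 (rank 942, in its 3' UTR), ceh-88 (2105), ceh-23 (2164), ceh-92 (2197, in the 3' UTR of Y66D12A.6) and ceh-90 itself (2486, 520 bp upstream of its start). Those of ceh-8, ceh-88 and ceh-23 were matched in both replicates, and those of ceh-92 and ceh-90 were not. For ceh-90, replicate 1 listed no summit in the window, and the strongest of replicate 2 ranked 3273. In the pooled list, the summits of ceh-21 and ceh-38 ranked above the strongest summit of each of the 93. For the ceh-38 site that order did not hold in replicate 2 alone, where ceh-8 ranked 1024 and ceh-38 1059. The ceh-38 peak was known when the genes were chosen, and the ceh-21 summit lies nearer to the start of T26C11.9 than to that of ceh-21. The order is therefore a description and does not set the family above its class. The ceh-90 locus is 12.3 Mb from the window of ceh-39 on chromosome X.

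Genes expressed in all neurons, a class that ONECUT and CUX proteins act on, had an optimal summit at 3 of 24 (12.5%), against 5.78% of all protein-coding genes. Their windows were longer, with a median of 8.19 kb against 4.027 kb for all protein-coding genes, and they held 0.362 pooled summits per kb, against 0.305 over all windows. With so few genes and longer windows, a count of 3 does not set this list apart. The profiled protein was CEH-90, so a link to ONECUT or CUX proteins was not tested. The 3 were ehs-1, for an endocytic adaptor (rank 192, 835 bp upstream), ric-19, for a protein of dense core vesicle maturation (543, 196 bp upstream), and unc-33, needed for axon outgrowth (757, in an intron). Next came the genes of the synaptic vesicle protein synaptobrevin, snb-1 (1038), and of syntaxin, unc-64 (1084), both outside the optimal list and matched in both replicates. Of 7 genes that count X chromosomes or follow from the count, none had an optimal summit. With 5.78% of all protein-coding genes and 1.87% of those on X having one, a count of 0 among 7 genes does not set this list apart. Their strongest were at sea-2 (rank 2490), fox-1 (5254), sdc-2 (7415) and her-1 (24284). The first 3 lay within the genes and were matched in both replicates. For xol-1, repressed by ceh-39, no pooled summit was in the window.

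**Figure D4:**
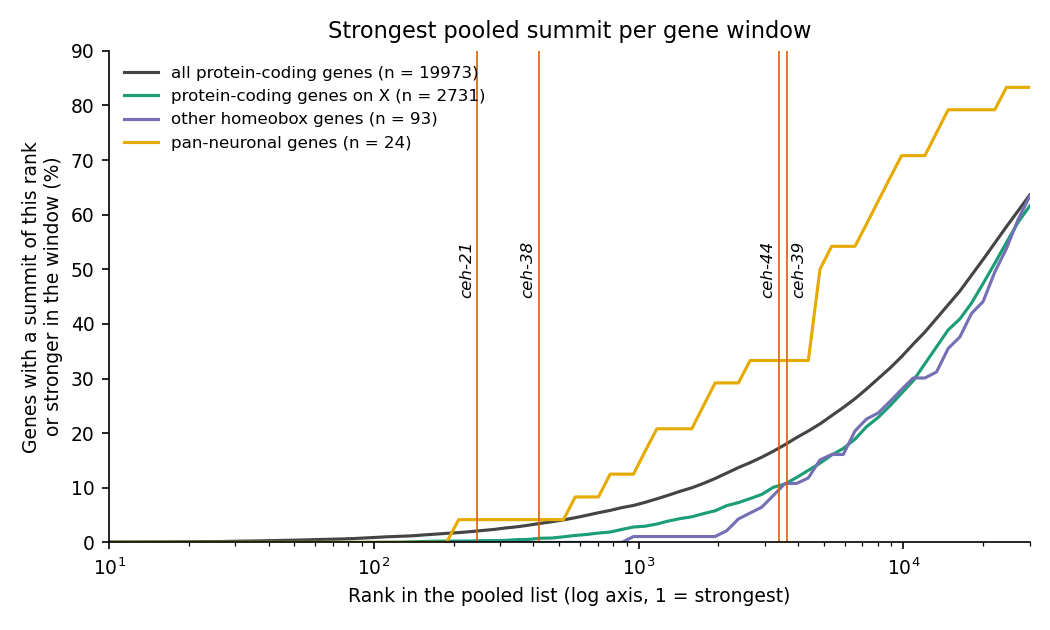
Share of genes (%) with a pooled summit of a given rank or stronger in the window, against rank (log axis, 1 is the strongest), for all 19973 protein-coding genes, the 2731 on X, 93 other homeobox genes and 24 pan-neuronal genes, with vertical lines at the strongest pooled rank of ceh-21 (246), ceh-38 (420), ceh-44 (3387) and ceh-39 (3648). The curve of the other homeobox genes stays at 0 until rank 942, to the right of the lines of ceh-21 and ceh-38.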

How the data were processed

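Whole L1 larvae were profiled by ChIP-seq as 2 replicates of 1 group. The deposited lists are in narrowPeak format, in build ce11. Per the deposited file descriptions, the replicate and pooled lists were derived from alignments and 1 control, and the optimal list from those. For the aligner, caller, threshold and versions no source here gives a name. The authors' signal, as deposited, has no stated scaling and served only for ranks inside each list. The authors' q-value was deposited as −log10. The ce10 lists were not used.

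Summits were assigned to windows from 2000 bp upstream to the gene end in Ensembl release 115 models of WBcel235, whose chromosome lengths hold all peaks. Partners were summits within 100 bp. Intervals are exact binomial at 95% and cover counting error only. Coordinates are 1-based. Sequences came from RefSeq's WBcel235 genome. The window assignment was tested on simulated data. Python 3.11.15, numpy 2.4.6, pandas 2.3.3 and scipy 1.17.1 were used.

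The members, words and gene lists were chosen with earlier results of these data known. Genes were named by rule: the members; up to 4 genes with a start within 2000 bp of a member's strongest pooled summit; the 5 genes nearest in replicate ranks to each member with an optimal summit; and up to 5 of each list by pooled rank. Of the listed symbols, ceh-85 and sex-2 had no match. Genes that own or border other described summits were named after their values were seen. Alternatives changed the window, the list, the match distance and the assignment to starts.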

Additional observations from a re-analysis of the deposited data

How the results depend on the processing

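The count of 2 genes with an optimal summit depended on the window. It was 1, ceh-38 alone, with 1000 or 500 bp upstream or with each summit given to its nearest start, since the ceh-21 site lies 1050 bp from that gene. It was 1, ceh-21 alone, in the stronger 382 peaks of the optimal list and without replicate 1, and 2 without replicate 2. The optimal list draws on both replicates, so leaving 1 out meant counting among the stronger peaks of the other replicate's own list. Promoter windows alone or a pooled q of 0.05 or less gave 2. The share of all protein-coding genes was 4.86% and 4.09% with 1000 and 500 bp, 5.41% with promoter windows, 2.91% with nearest starts, 3.14% in the stronger list, 6.18% at a q of 0.05 or less, and 5.67 to 5.73% with 1 replicate left out. The pan-neuronal count was 1 in the stronger list, 2 with 500 bp upstream or promoter windows, and 2 to 3 with 1 replicate left out. The other homeobox and X-counting genes gave 0 in every setting run. Genes matched in both replicates numbered 4 with 200 bp, ceh-39 and ceh-44 being added, 2 with 50 bp, and 1 with 1000 or 500 bp upstream. Strongest ranks in the single replicates were 235 to 242 for ceh-21, 331 to 1059 for ceh-38, 927 to 13537 for ceh-39 and 1083 to 1639 for ceh-44. The ceh-44 rank became 6511 with 1000 or 500 bp upstream. No such rank was left for ceh-21, which then had no summit. The median density was 0.182 to 0.246 per kb with 1 replicate left out, 0.0 with 1000 bp upstream and 0.168 with the RefSeq span of ceh-44, an alternative chosen after seeing the data. That span could not move the median, since ceh-44 had the highest density of the members under either span. It changed ceh-44 itself from 0.674 to 0.761 per kb, with 11 pooled summits. No paired analysis was possible because there is 1 group and no test. Read depth is unknown, so weak summits that differ between replicates could not be weighed by depth.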
